A study of Mus musculus with 6 samples.

Results

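Nuclear receptors, their partners and their coregulators were examined in the livers of 3 mice with a sphingosine-1-phosphate (S1P) lyase knock-out and of 3 WT mice. The set was a list of 38 gene symbols, and its members were all probe sets (groups of probes read as 1 value) annotated with exactly 1 symbol that is on the list. By this rule 36 genes had 100 probe sets, of 18193 genes on the array with such an annotation. Nr1h2 and Ncor1 had none in the annotation used and were not analysed here. Of the 36, Vdr and Nr2f1 lay in the dim range on every probe set, and 34 genes with 79 probe sets were tested. Both genotypes shared a mixed C57BL6 and 129sv background, and neither received a treatment. The sources used here do not give age, sex, litter, diet or the tissues in which the enzyme was missing. S1P lyase, the product of Sgpl1, is the enzyme that irreversibly cleaves S1P, a signalling lipid made from sphingolipids.

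Nuclear receptors are transcription factors that sit on DNA, often as heterodimers with an RXR, and switch their target genes on or off when a small lipophilic ligand such as a bile acid, an oxysterol, a fatty acid, a retinoid or a hormone binds them. Without ligand many hold corepressors such as Ncor1, and with ligand they exchange them for coactivators of the Ncoa family. In the liver they set bile acid synthesis, lipid handling, drug metabolism and the fasting response. The aryl hydrocarbon receptor, Ahr, is no nuclear receptor but a ligand-activated factor of another family that works beside them on xenobiotic enzymes.

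Most of these genes did not pass the test, and 5 did. Nr1i3, Nr0b2, Thrb and Nr2f6 fell in the knockout livers and Pparg rose. The count, 5 of 34 or 14.7%, lay near the 18.6% of all 13370 tested genes that were called (limma on the deposited log2 values, with p adjusted over all genes by Benjamini-Hochberg and called under 0.05). By direction, 1 member rose, where 10.5% of all genes did, and 4 fell, where 8.09% did. The median size of a difference, regardless of sign, was 0.22 log2 among the members and 0.23 among all genes tested. Knockout and WT arrays did not overlap in 15 of the 34 members, beside 40.8% of all genes.

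**Figure D1:**
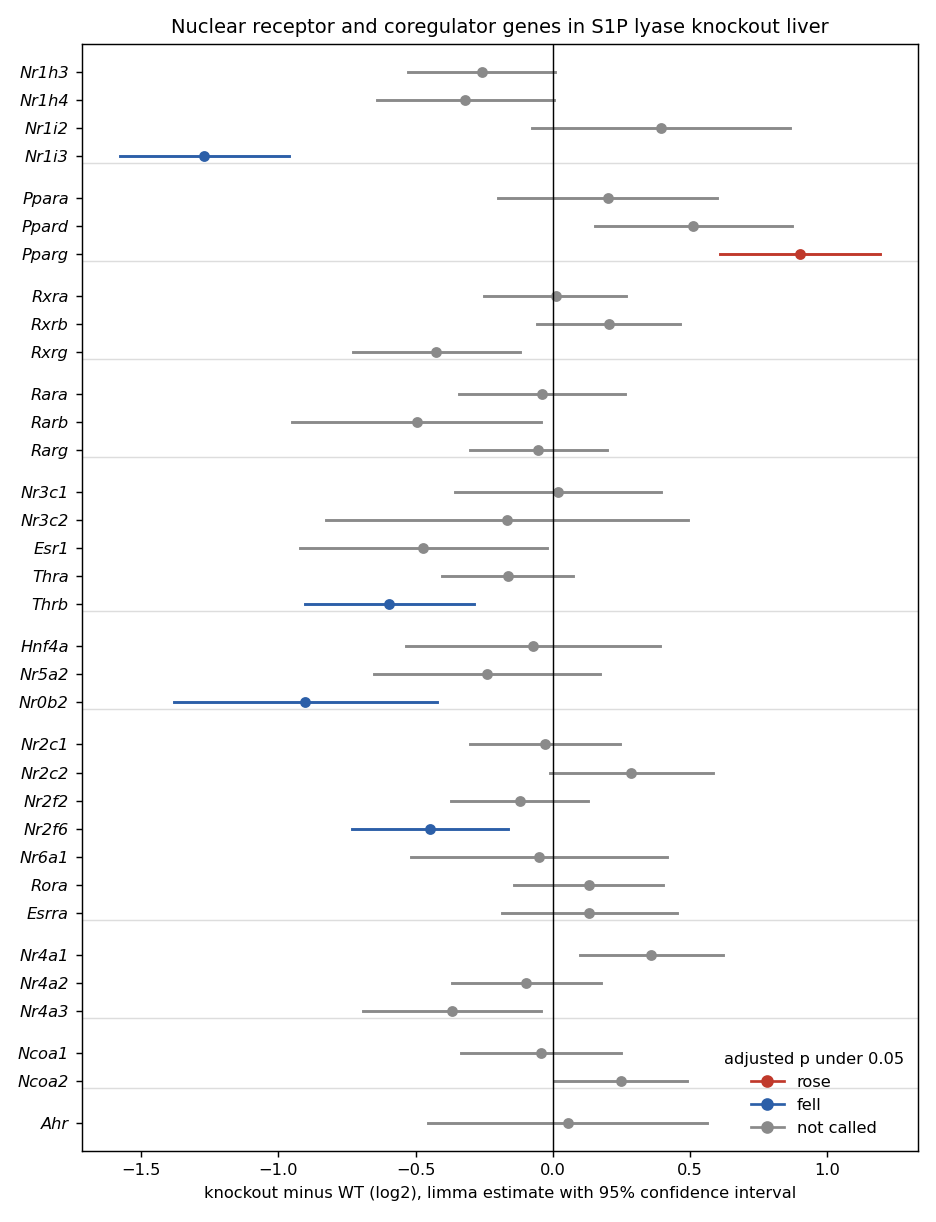
Difference between knockout and WT livers (log2, x axis) for the 34 tested genes, 1 probe set each, in blocks by role from bile acid and xenobiotic receptors at the top to Ahr at the bottom. Points are limma estimates and lines their 95% confidence intervals (3 knockout and 3 WT arrays); Nr1i3 at -1.27 is the lowest and Pparg at 0.90 the highest.

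The arrays themselves differed with genotype, and this bears on small differences. Sgpl1, the targeted gene, read 2.46 to 2.99 log2 in the knockout livers and 6.65 to 6.90 in WT livers. The sources used here do not say where its probes lie relative to the deleted part. The hepatocyte markers Alb and Apoa1 were among the brightest probe sets in both genotypes. All 6 tested hepatocyte markers read lower in knockout, with a median of -0.08 log2, against -0.05 for all genes. Of the 6, 1 was called, or 16.7%, beside 18.6% of all genes. It was Tdo2, which fell by 0.71 log2 and lost its call without certain single arrays (limma adjusted p up to 0.131). The signal of the 3' minus the 5' probe set of Pcx, a measure of how far labelling or the RNA reached, was 2.77 to 3.40 log2 in knockout and 1.97 to 2.31 in WT (p = 0.1 by a two-sided exact permutation test, the lowest value possible with 3 arrays a group). The added bacterial poly-A control RNAs averaged 8.52 to 9.07 log2 in knockout and 7.99 to 8.08 in WT (exact permutation test, p = 0.1). Centring the arrays on these controls moves every difference by -0.75 log2, and the median over all genes is then -0.80. On that scale 28 of the 34 members fell and none rose, while 78.5% of all genes were called. Centring on hepatocyte markers moves every difference by 0.18 log2 the other way. Directions below are those on the deposited scale. Neutrophil markers rose in 7 of 8 tested genes, and their mean was 9.11 to 9.42 log2 in knockout against 5.56 to 5.76 in WT. The share of any difference that these changes carry was not tested. In whole liver, fewer cells of a type and less RNA per cell cannot be told apart.

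Among receptors for bile acids, sterols and foreign compounds, only Nr1i3 passed. Nr1i3 encodes CAR, the constitutive androstane receptor, which drives drug-metabolising enzymes in hepatocytes. Its values were 7.71, 7.35 and 7.40 log2 in the knockout livers, against 8.85, 8.65 and 8.77 in WT livers. Every knockout liver was below every WT liver, and the gap between the groups was wider than the spread within either. Nr1i3 was 2.41-fold lower in knockout (-1.27 log2, SE 0.13, limma adjusted p = 0.000819). This call held under all 10 other settings and without any single array, where the adjusted p reached at most 0.00633.

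The other receptors of this class differed less. Nr1h4, which encodes the bile acid receptor FXR, read 8.22, 8.25 and 8.56 log2 in knockout and 8.59, 8.84 and 8.56 in WT. Its difference was -0.32 log2 with a 95% interval of -0.64 to 0.00, and the third knockout liver fell within the WT range. Nr1h3 encodes LXR-alpha, a sensor of oxysterols, and read 7.29 ± 0.12 log2 in knockout and 7.55 ± 0.08 in WT (SD, n = 3 each). All 3 knockout livers lay below all WT livers, but the difference of -0.26 log2 (SE 0.12) did not pass (limma adjusted p = 0.155). Nr1i2, the gene of the xenobiotic receptor PXR, had 2 tested probe sets that went opposite ways, 0.39 and -0.14 log2, and neither passed. Vdr, the vitamin D receptor gene, read 2.87 to 2.92 log2 in knockout and 2.97 to 3.53 in WT on its brighter probe set, below the 3.58 log2 used as the limit for dim probe sets.

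Nr0b2 was the member with the next steepest fall. It encodes SHP, a receptor without a DNA-binding domain that FXR induces and that holds back bile acid synthesis. The values were 7.47, 7.46 and 7.60 log2 in knockout, against 8.86, 8.39 and 7.98 in WT. The knockout livers were tightly grouped and all below the WT livers, which were spread widely. Nr0b2 was 1.87-fold lower in knockout (-0.90 log2, SE 0.21, limma adjusted p = 0.0212). The call was lost without knockout replicate 1 (adjusted p = 0.0729) or knockout replicate 2 (adjusted p = 0.0788), with differences of -0.88 in both cases. Nr5a2, which encodes LRH-1, an activator of bile acid synthesis genes that SHP restrains, differed by -0.24 log2 on its brightest probe set (95% interval -0.65 to 0.17). Its 3 other tested probe sets read -0.11 to -0.28 log2 and were not called.

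**Figure D2:**
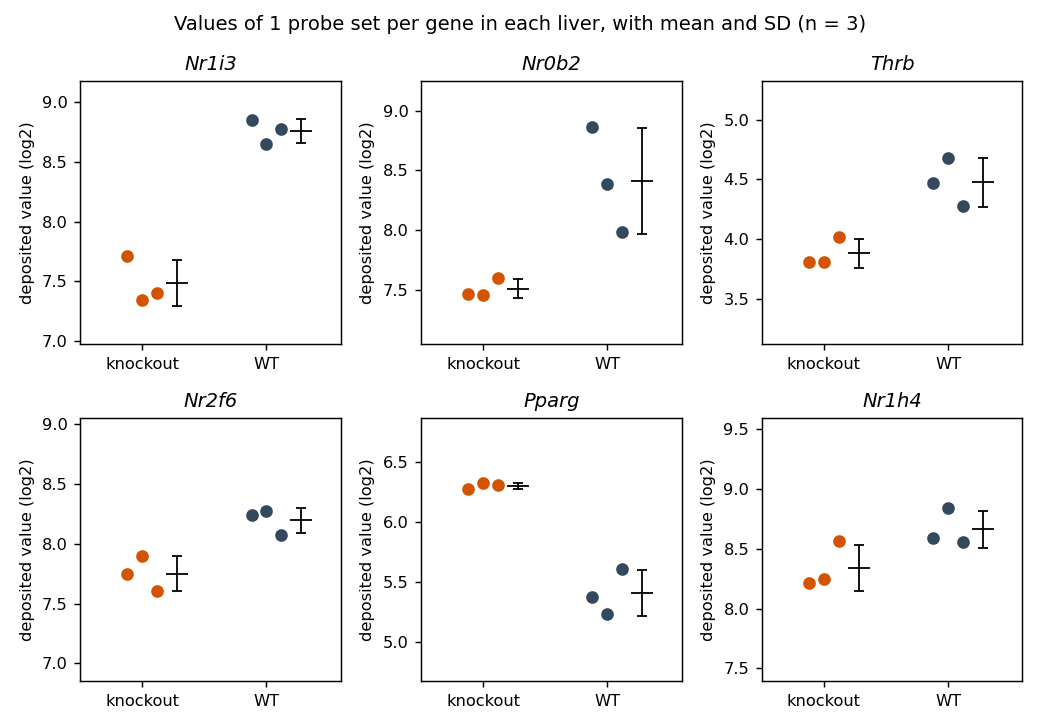
Deposited log2 values (y axis, the same span in every panel) in the 3 knockout livers, on the left of each panel, and the 3 WT livers, for the 5 genes that passed the test and for Nr1h4. Points are animals and the marks beside them the mean with SD (n = 3); the groups lie apart for Nr1i3, Nr0b2, Thrb, Nr2f6 and Pparg and overlap for Nr1h4.

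Of the hormone receptors, Thrb fell and the others did not pass. Thrb encodes TR-beta, the main thyroid hormone receptor of hepatocytes. It read 3.81, 3.81 and 4.02 log2 in knockout, against 4.47, 4.68 and 4.27 in WT. The groups did not overlap, but both lay little above the dim limit of 3.58 log2, where background compresses a difference. Thrb was 1.51-fold lower (-0.60 log2, SE 0.13, limma adjusted p = 0.019). It lost its call when replicate 1 or 2 of either genotype was left out (adjusted p 0.0719 and 0.0747 in knockout, 0.051 and 0.0544 in WT) and after centring on hepatocyte markers (adjusted p = 0.164). Thra, the other thyroid hormone receptor gene, had 3 tested probe sets between -0.16 and 0.25 log2, none called.

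None of the steroid receptor genes passed. Esr1, the oestrogen receptor alpha gene, read 8.15, 8.54 and 7.86 log2 in knockout and 8.92, 8.51 and 8.53 in WT. One knockout liver overlapped the WT values, and the difference of -0.47 log2 (95% interval -0.92 to -0.02) did not pass after adjustment (limma adjusted p = 0.129). The other 2 Esr1 probe sets also read lower, at -0.32 and -0.34 log2. Nr3c1, the glucocorticoid receptor gene, differed by 0.02 log2 on its brightest probe set (95% interval -0.36 to 0.39). Its other tested probe sets spread from -0.54 to 0.26 log2 and none was called. Nr3c2, the mineralocorticoid receptor gene, lay at the dim limit, with 3.50 ± 0.41 log2 in knockout and 3.66 ± 0.52 in WT (SD, n = 3 each).

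Among fatty acid receptors Pparg rose, and the 3 members read higher on their brightest probe sets. Pparg encodes PPAR-gamma, which promotes lipid storage and is expressed in fat cells and macrophages more than in hepatocytes. Its values were 6.28, 6.33 and 6.31 log2 in knockout, against 5.38, 5.23 and 5.61 in WT. The knockout livers were nearly identical and above every WT liver. Pparg was 1.87-fold higher (0.90 log2, SE 0.13, limma adjusted p = 0.00281), and the call held without any single array (adjusted p at most 0.0174). Centred on poly-A controls the difference was 0.15 log2 and not called (adjusted p = 0.572). The macrophage genes Marco and Cd68 rose by 3.02 and 1.58 log2 in the same livers, while Vsig4, typical of resident Kupffer cells, fell by 2.30. Of the 10 tested Kupffer cell and macrophage markers 2 rose and 4 fell, among them Cd163, which was tested only because of its WT level. The mean of the 10 markers was 7.06 to 7.29 log2 in knockout against 7.32 to 7.70 in WT. The part of these cells in the Pparg difference was not tested.

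Ppara and Ppard did not pass. Ppara encodes PPAR-alpha, the fatty acid sensor that turns on fat oxidation in fasting hepatocytes. It read 9.41, 9.74 and 9.03 log2 in knockout and 9.15, 9.18 and 9.24 in WT, so that the knockout livers lay on both sides of a narrow WT range. Its 3 probe sets gave differences of 0.14 to 0.30 log2, and the interval for the brightest was -0.20 to 0.60. Ppard, which encodes the widely expressed PPAR-delta, read 4.72, 4.91 and 4.58 log2 in knockout and 3.96, 4.25 and 4.47 in WT. The groups did not overlap, with a difference of 0.51 log2 (SE 0.16) that narrowly missed the test (limma adjusted p = 0.0558). It was called without WT replicate 3 (adjusted p = 0.0294), with arrays weighted by their quality (adjusted p = 0.0255) and after centring on hepatocyte markers (adjusted p = 0.0283). Its other probe set read -0.14 log2.

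None of the RXR and retinoic acid receptor genes passed. Rxra, the main heterodimer partner in liver, read 8.98, 9.04 and 8.92 log2 in knockout and 9.11, 8.85 and 8.95 in WT. Its difference was 0.01 log2 with a 95% interval of -0.25 to 0.27. A second Rxra probe set read -0.39 log2, with all knockout livers below all WT livers (limma adjusted p = 0.0859 over all probe sets). Rxrb differed by 0.20 log2 and the dimmer Rxrg by -0.42, and in both genes the groups did not overlap. Of the retinoic acid receptors, Rara and Rarg differed by -0.04 and -0.05 log2. Rarb, a receptor gene that retinoic acid itself induces, read 4.86, 4.65 and 4.52 log2 in knockout and 5.59, 5.07 and 4.85 in WT. Its difference was -0.50 log2 (SE 0.20, limma adjusted p = 0.117), with 1 knockout liver just inside the WT range. Of the 6 stellate cell markers, which mark the retinoid-storing cells of the liver, Reln and Lrat fell by 0.64 and 1.25 log2 and Pdgfrb rose by 0.55 (named after its value was seen). Lrat lost its call without knockout replicate 1 or 2 or without WT replicate 2 (adjusted p up to 0.0813), and Reln after centring on hepatocyte markers (adjusted p = 0.0909). Pdgfrb lost it without any array but knockout replicate 3 (adjusted p up to 0.102) and was -0.19 on the poly-A scale. The mean of these markers was 7.03 to 7.12 log2 in knockout and 7.22 to 7.50 in WT, and its part in the Rarb value was not tested.

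Hnf4a, the gene of a receptor that maintains hepatocyte identity, gave different answers on different probe sets. The brightest read 10.25, 10.73 and 10.87 log2 in knockout and 10.63, 10.43 and 11.01 in WT, which overlap. Its difference was -0.07 log2 with a 95% interval of -0.54 to 0.39. Another probe set, annotated to a different sequence record, averaged 6.51 ± 0.58 log2 in knockout and 7.67 ± 0.40 in WT (SD, n = 3 each) and fell by 1.16 log2 (SE 0.30, limma adjusted p = 0.034 over all probe sets). A further probe set, annotated to the same record as the one that fell, differed by -0.94 log2 without passing, and the last by -0.23. The knockout livers were thus all below the WT livers on both probe sets of that record and overlapped them on the other pair.

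Over all member probe sets, 9 of 79 were called, 1 upwards and 8 downwards, where 17.9% of all 27022 tested probe sets were. Nr2f2, the gene of COUP-TFII, fell on 2 of its dimmer probe sets, by 0.59 and 0.55 log2, while its brightest read 7.68, 7.69 and 7.68 log2 in knockout and 7.83, 7.89 and 7.69 in WT, a difference of -0.12. The second of these dimmer probe sets, one of the 8 that fell, averaged 3.55 log2 in knockout, below the limit for dim probe sets, and 4.10 in WT, so it was tested only because of its WT level. Ncoa2, a coactivator gene, fell by 0.64 log2 on 1 probe set, whereas its brightest was 0.25 higher. The brightest probe set read higher, relative to WT, than the mean of the gene's other tested probe sets in 14 of 21 members with more than 1. The same held in 60% of 5691 genes. The median gap was 0.17 log2 in the members and 0.08 in all such genes. The same knockout arrays had the higher 3' minus 5' values. The sources used here do not say where each probe set lies along its transcript, and the part of this in the disagreement was not tested.

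**Figure D3:**
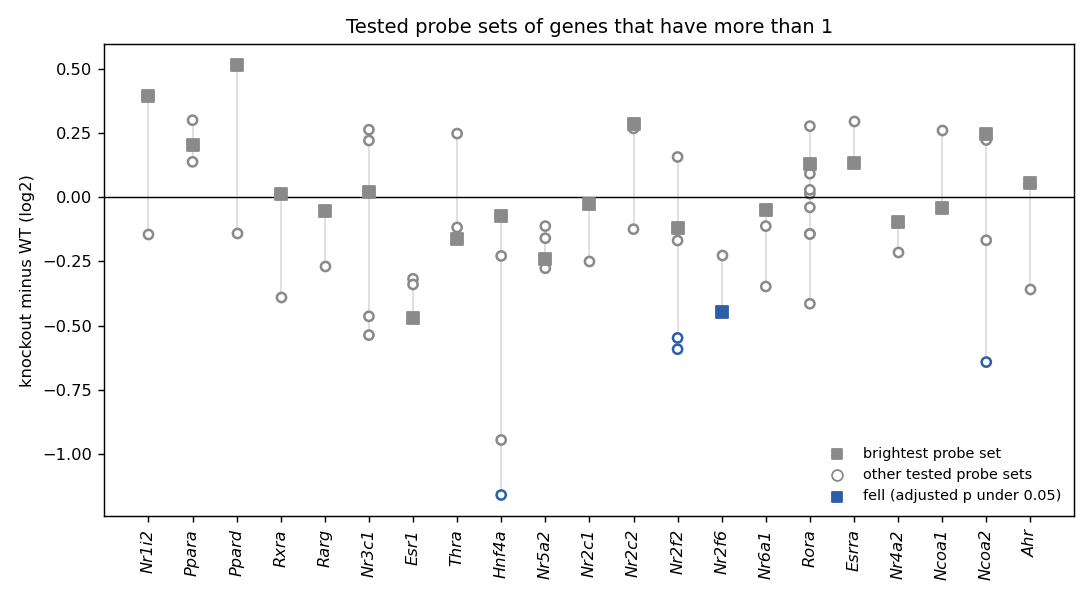
Difference between knockout and WT livers (log2, y axis) of each tested probe set for the 21 genes with more than 1. Squares are the brightest probe set of a gene and open circles its others; blue marks those that fell, among them 1 of Hnf4a at -1.16, 2 of Nr2f2 and 1 of Ncoa2 whose brightest probe set did not.

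Of the remaining orphan receptors, Nr2f6 fell. Nr2f6 encodes EAR2, a repressor related to COUP-TFII. Its values were 7.75, 7.90 and 7.61 log2 in knockout, against 8.24, 8.27 and 8.08 in WT. The groups did not overlap, and Nr2f6 was 1.36-fold lower (-0.45 log2, SE 0.12, limma adjusted p = 0.0402). The call was the least stable of the 5. It was lost when any array but WT replicate 3 was left out, with adjusted p-values of 0.0611 to 0.115. It was also lost with arrays centred on their median (adjusted p = 0.0541) or on hepatocyte markers (adjusted p = 0.386), and with the mean of both probe sets (adjusted p = 0.069). Nr2c2, the gene of the repressor TR4, was 0.29 log2 higher without overlap and did not pass. Nr2c1, Nr6a1, Esrra and Rora differed by -0.05 to 0.13 log2 on their brightest probe sets. The 9 tested probe sets of Rora, a receptor gene of the clock and of lipid metabolism, spread from -0.41 to 0.28 log2 and none was called. Nr2f1 read 2.28 to 2.43 log2 in knockout and 2.25 to 2.46 in WT, in the dim range.

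The NR4A genes, which are induced within minutes of many stimuli, went different ways and did not pass. Nr4a1 read 6.23, 6.23 and 6.30 log2 in knockout and 6.01, 5.91 and 5.77 in WT. All knockout livers were above all WT livers, and the difference was 0.36 log2 (95% interval 0.10 to 0.62, limma adjusted p = 0.0616). It was called under 4 of the 10 other settings, among them arrays centred on their median (adjusted p = 0.0425). Nr4a3 was lower without overlap, at -0.37 log2 (SE 0.14), and Nr4a2 differed by -0.10. Of the coactivators, Ncoa1 differed by -0.04 log2 (95% interval -0.34 to 0.25). Ahr read 8.87, 8.98 and 9.20 log2 in knockout and 9.02, 8.48 and 9.39 in WT. The knockout values lay inside the WT range, with a difference of 0.06 log2 (95% interval -0.45 to 0.56). The other tested Ahr probe set read -0.36 log2 (95% interval -0.78 to 0.06) and was not called.

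The letters upstream of the genes that fell were also read. Promoter windows (250 bases before to 50 after a gene's start, RefSeq, mouse build GRCm38.p6) were at hand for 34 of the 38 genes, 51 windows in all. The 12 motifs were chosen and searched on both strands with the calls already known, so the match below was chosen after its count was seen. The E-box CACGTG, which is palindromic and is bound by clock proteins and by other factors of the same family, stood in windows of 4 genes. These were Nr1i3, Nr0b2 and Thrb, which fell, and Rara, which did not pass. It stood in 5 of the 51 member windows, beside 7.15% of all 32851 windows. The Rara windows, chr11:98937446-98937745 and chr11:98937468-98937767, overlap and hold the same E-box. The windows of the 3 genes that fell are printed 5′ to 3′ with the E-box in capitals. The first is Nr1i3, chr1:171213720-171214019 on the plus strand, with the E-box starting 244 bases before the start. The next is Nr0b2, chr4:133553126-133553425 on the plus strand, with the E-box 195 bases before. The last is the second listed start of Thrb, chr14:17981394-17981693 on the plus strand, with the E-box 193 bases before, while the other Thrb window had none.
Nr1i3: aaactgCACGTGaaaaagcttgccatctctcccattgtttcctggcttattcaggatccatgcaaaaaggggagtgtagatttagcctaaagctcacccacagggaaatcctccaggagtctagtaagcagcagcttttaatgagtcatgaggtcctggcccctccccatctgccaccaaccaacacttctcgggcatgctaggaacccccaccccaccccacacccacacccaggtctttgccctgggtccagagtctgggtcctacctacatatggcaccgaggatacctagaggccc
Nr0b2: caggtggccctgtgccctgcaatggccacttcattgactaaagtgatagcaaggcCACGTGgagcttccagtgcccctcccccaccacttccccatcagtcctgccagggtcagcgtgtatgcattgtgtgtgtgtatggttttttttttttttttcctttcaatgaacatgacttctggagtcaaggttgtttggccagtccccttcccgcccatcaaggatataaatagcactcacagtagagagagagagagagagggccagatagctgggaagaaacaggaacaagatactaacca
Thrb: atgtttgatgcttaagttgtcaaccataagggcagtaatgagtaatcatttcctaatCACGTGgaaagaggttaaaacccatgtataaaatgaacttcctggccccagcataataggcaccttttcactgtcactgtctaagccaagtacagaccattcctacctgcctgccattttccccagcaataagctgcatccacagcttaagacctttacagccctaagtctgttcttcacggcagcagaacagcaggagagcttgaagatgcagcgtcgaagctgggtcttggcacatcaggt
The half-site AGGTCA, the core that most nuclear receptors bind, stood in windows of 9 member genes. It stood in 10 of the 51 member windows, beside 16.3% of all windows. Of the 4 genes that fell, 1 had it, Thrb, in its other window. Direct repeats of it with 1 or 4 bases between, and inverted repeats with 1, stood in no member window. Each stood in at most 0.0396% of all windows. The NR5A site CAAGGTCA and the HNF4 core CAAAGTCC stood in none either, beside 1.56% and 1.42% of all windows. The NR4A site AAAGGTCA stood in 2 member windows, of Rxra and Rxrg, beside 1.51% of all windows. The AhR core GCGTG stood in 25 of the 51 member windows, beside 32.4% of all windows. The GC box GGGCGG stood in 25 as well, beside 35.7%. Of the genes that fell, Thrb, Nr0b2 and Nr2f6 had both, so the E-box was not the only motif shared by most of them. TATAAA stood in 5 member windows, beside 13.6% of all windows, and CCAAT in 16, beside 37.4%. These matches describe letters only and do not show that a factor binds there.

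Genes that nuclear receptors regulate, and other receptors and coregulators, were called more often than the members. In 12 lists of such genes 37 of 103 tested genes were called, or 35.9%, 16 upwards and 21 downwards, beside 18.6% of all genes. Their median difference was -0.03 log2, and that of all genes -0.05. Of the 12 lists 3 held called genes in both directions. In 1 of these, the PPAR-gamma list, the only fall was that of Cidea, which was tested only because of its WT level. The lists were drawn up with earlier results of these samples known, so their counts are a description.

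**Figure D4:**
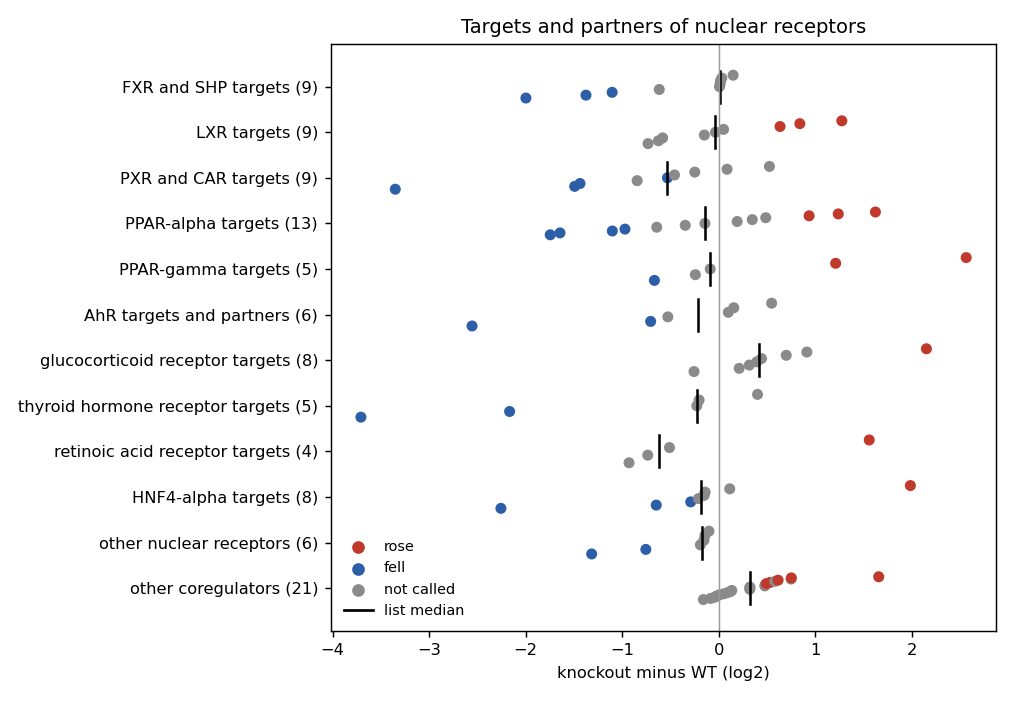
Difference between knockout and WT livers (log2, x axis) for the tested genes of 12 lists of receptor targets, other receptors and other coregulators, with the number tested in brackets. Points are genes, coloured by whether they passed the test, and bars are list medians; Thrsp at -3.71 is the lowest and Fabp4 at 2.56 the highest.

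Targets of CAR and PXR mostly read lower, as did Nr1i3. Of 9 tested, 4 fell and none rose, with a list median of -0.53 log2. Cyp2c55, a cytochrome P450 gene that CAR and PXR induce, read 4.23 log2 on average in knockout and 7.58 in WT (-3.35, SE 0.24). Ces2a, a carboxylesterase gene, fell by 1.49 log2 (SE 0.20) and Slco1a4, an organic anion importer, fell by 1.44 (SE 0.20). Limma adjusted p-values of these 3 were 0.000151 to 0.00257. Cyp2b10, the classical CAR target, differed by -0.85 log2 with an SE of 0.37 and did not pass (limma adjusted p = 0.144). Without WT replicate 1 it was -0.36, and without WT replicate 3 it was -1.18 and passed (adjusted p = 0.0466).

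In the list for FXR and SHP, 3 of 9 fell and none rose, with a median of 0.01 log2. Cyp7a1, the rate-limiting enzyme of bile acid synthesis, which SHP represses, averaged 8.03 log2 in knockout and 10.02 in WT (-2.00, SE 0.27, limma adjusted p = 0.00217). Abcb11, the bile salt export pump that FXR induces, fell by 1.38 log2 (SE 0.17), and Slc10a1, the bile acid importer, was 2.15-fold lower (SE 0.10 log2). Other FXR targets, Slc51a, Slc51b and Abcb4, differed by 0.03 log2 or less and did not pass. Cyp8b1, which SHP also restrains, differed by -0.62 with an SE of 0.60. That value came from knockout replicate 3, without which it was 0.15.

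Of 9 LXR targets, 3 rose and none fell, with a median of -0.03 log2. The cholesterol exporter Abcg1 rose by 1.27 log2 (SE 0.16), and Mylip, a ligase that degrades the LDL receptor, by 0.84 (SE 0.11). On the poly-A scale Mylip was 0.09 and not called (limma adjusted p = 0.734), while Abcg1 was 0.53 and still called (limma adjusted p = 0.0463). Abca1, another cholesterol exporter, rose by 0.64 (SE 0.12), but the mean of its probe sets was -0.06 and the difference on the poly-A scale -0.11. Abcg1, Abca1 and Mylip are expressed in macrophages as well as hepatocytes, and the part of either cell type in these rises was not tested. The remaining targets of the list were not called. Their differences were -0.73 log2 for Srebf1, -0.62 for Abcg8, -0.58 for Lpcat3, -0.15 for Pltp, -0.03 for Scd1 and 0.05 for Abcg5.

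PPAR-alpha targets were divided, with 4 of 13 falling and 3 rising around a median of -0.14 log2. Ehhadh, of peroxisomal fatty acid oxidation, fell by 1.75 log2 (SE 0.17), Acot3, an acyl-CoA thioesterase gene, fell by 1.64 (SE 0.26) and Fabp1, the liver fatty acid binding protein gene, fell by 0.97 (SE 0.12). Those that rose were Vnn1 by 1.62, Pdk4 by 1.24 and Angptl4 by 0.94 log2. Each lost its call without certain single arrays, Vnn1 and Angptl4 without knockout replicate 1 or 2 and Pdk4 without knockout replicate 2, WT replicate 1 or WT replicate 2 (adjusted p up to 0.071). On the poly-A scale Pdk4 was 0.49 and Angptl4 0.19, neither called, while Vnn1 was 0.87 and still called. Of 5 PPAR-gamma targets 2 rose and 1 fell. Fabp4, a fatty acid binding protein gene of fat cells and macrophages, rose by 2.56 log2 (SE 0.30), and Cd36, a fatty acid importer, by 1.21 (SE 0.22). On the poly-A scale Fabp4 was 1.81 and still called, while Cd36 was 0.46 and not called (limma adjusted p = 0.0794). Cidea, of lipid droplets, fell by 0.67 (SE 0.12). It averaged 3.35 log2 in knockout, in the dim range, and 4.01 in WT, so it was tested only because of its WT level.

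For thyroid hormone receptors, 2 of 5 targets passed, and both were lower. Thrsp fell by 3.71 log2 (SE 0.50) and the malic enzyme gene Me1 fell by 2.17 (SE 0.54), while Dio1, a deiodinase gene that thyroid hormone induces, differed by -0.20 (SE 0.18). Me1 lost its call without knockout replicate 1 (adjusted p = 0.0967) or 2 (adjusted p = 0.0965). For the glucocorticoid receptor, Zbtb16 rose by 2.15 log2 (SE 0.38) and the other 7 tested genes did not pass, 6 of them reading higher. For retinoic acid receptors, Tgm2 rose by 1.56 log2 (SE 0.20). The retinoic acid hydroxylase genes Cyp26a1 and Cyp26b1, which retinoic acid induces, differed by -0.93 and -0.73 without passing. WT replicate 1 was far above the other arrays in both genes, and without it the differences were -0.23 and -0.39.

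In the Ahr list, Cyp1a2 averaged 9.51 log2 in knockout and 12.07 in WT (-2.56, SE 0.33, limma adjusted p = 0.00199). Ahr itself differed by 0.06 log2 on its brightest probe set and -0.36 on the other, neither called. Nqo1 fell by 0.70 (SE 0.19), a call that was lost without any of the 3 knockout arrays, WT replicate 2 or WT replicate 3 (adjusted p 0.0563 to 0.117). The dimmer Cyp1a1 differed by -0.53 and did not pass. In the HNF4-alpha list 3 of 8 fell and 1 rose. Pklr, of glycolysis, fell by 2.26 log2 (SE 0.42) and Otc, of the urea cycle, fell by 0.65 (SE 0.12), while Apoa4 rose by 1.99 (SE 0.36).

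Receptors and coregulators that were not members completed the picture. Of 6 tested receptors, Nr1d1 and Nr1d2, which encode the clock repressors REV-ERB alpha and beta, fell by 1.32 (SE 0.24) and 0.76 log2 (SE 0.15), and none rose. Nr1d2 lost its call after centring on hepatocyte markers (adjusted p = 0.0814). Of 21 tested coregulators 5 rose and none fell, or 23.8% called, beside 18.6% of all genes called and 10.5% that rose. Their median was 0.32 log2, against -0.05 for all genes. The acetyltransferase genes Ep300 and Crebbp rose by 0.61 (SE 0.13) and 0.49 (SE 0.11), and the deacetylase gene Sirt1 by 0.75 (SE 0.18). On the poly-A scale the Ep300, Crebbp and Sirt1 differences were -0.13, -0.26 and 0.003, and none was called. Ep300 lost its call without knockout replicate 1 or WT replicate 2, Crebbp without knockout replicate 2 or WT replicate 1, and Sirt1 without knockout replicate 1 or 3 or WT replicate 1, with adjusted p-values of 0.0528 to 0.0811. Ppargc1a, the fasting coactivator PGC-1 alpha, was named after its values were seen. It read 8.35, 7.57 and 6.56 log2 in knockout and 6.08, 5.11 and 6.32 in WT. The knockout livers were all above the WT livers but were spread widely, and the rise of 1.66 log2 (SE 0.46, limma adjusted p = 0.0418) was lost when replicate 1 or 2 of either genotype was left out (adjusted p 0.0804 to 0.123).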

How the data were processed

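Liver RNA of 3 knockout and 3 WT mice, 1 array each, was measured on Affymetrix mouse whole-genome arrays, which hold 45101 probe sets. The deposited values, 1 per probe set, were taken as log2 from their range, since the sources used here do not state the log base, and every fold rests on this. MAS5 is named in the submitters' processing notes, without a version. The sources used here give neither the summarization, background and scaling steps nor any batches. Replicate numbers only name the mice.

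Probe sets were named from the platform annotation, by those with exactly 1 symbol (34958, with 932 holding several and 9211 none listed). A floor at the 40th percentile of the probe sets' means over the 6 arrays (3.58 log2) removed dim ones, which left 27022. The brightest tested probe set stood for its gene, for 13370 genes. Knockout and WT were compared in R 4.3.3 with limma 3.58.1 (lmFit, then eBayes with an intensity trend, two-sided), adjusted by Benjamini-Hochberg over all genes, or over all tested probe sets in a second fit, and called at an adjusted p under 0.05. The number of arrays limits the precision. The script was tested on simulated data. All members are described. From each list of related genes the 3 with the smallest adjusted p, and from each marker list up to 2, were chosen by rule, and others were named only after their values were seen. The members and the lists were chosen with earlier results of these data known. The alternatives were other filters, quantile normalization, 3 centrings, no trend, array weights, averaging the probe sets of a gene, 1 fit over probe sets, and leaving out each array.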

Additional observations from a re-analysis of the deposited data

How the results depend on the processing

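The main limit is scale. On arrays centred on poly-A controls, members that rose numbered 0 and members that fell 28, genes of the related lists that rose 7 and that fell 70. All but 1 of the members' differences, Pparg's, were then negative, and 12 members changed sign. Of these, 7 were called in the new direction, Ppara (-0.55), Rxra (-0.74), Rxrb (-0.55), Nr3c1 (-0.73), Rora (-0.62), Esrra (-0.62), and Ahr (-0.69). Calls on this scale are not independent of each other, since the same control mean of an array is taken from every gene. The spread of that mean among knockout arrays, 8.52 to 9.07 log2, thus enters all genes alike. Other named genes that turned included Abca1 (-0.11), Ep300 (-0.13), Crebbp (-0.26), Slc51a (-0.74), Slc51b (-0.72), Abcb4 (-0.73), Stab2 (-0.30), Pdgfrb (-0.19) and Csf1r (-0.42). When probe sets of a gene were averaged, Abca1 was -0.06. Members that rose numbered 2 with the filter at the 60th percentile, with arrays centred on their median or on hepatocyte markers and with the mean of probe sets, and 3 with array weights. With arrays centred on hepatocyte markers 2 members fell, where 2.82% of all genes fell and 13.8% rose. Leaving out 1 array gave 1 to 2 members that rose, 1 to 4 that fell, and 10 to 19 genes of the related lists that rose. The cause was not tested, apart from the constant shift that each centring adds. Among the members' values with 1 array left out, 192 kept their side of the threshold, 11 lost a call and 1 gained one. In 19 of the 204 the sign changed, in 9 members that were not called. Nr1i3 and the lower Sgpl1 level kept their calls under every alternative run, and Pparg under all but poly-A centring. Thrb could not be tested at the stricter filter. No paired analysis was possible because the columns carry no replicate numbers shared between the genotypes. Dim probe sets compress differences.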

Other observations

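Cells other than hepatocytes also differed in these livers. The B cell markers rose in 4 of 4 tested genes, with a mean of 6.21 to 6.60 log2 in knockout and 4.30 to 4.35 in WT. Both the count and the mean include Pou2af1, which averaged 6.10 log2 in knockout and 3.14 in WT, below the limit for dim probe sets. It was thus tested only because of its knockout level. Of 5 T and NK cell markers 2 rose, Nkg7 by 0.97 and Gzma by 2.62 log2, while the T cell gene Cd3e differed by -0.28 without passing. On the poly-A scale Nkg7 was 0.22 and not called (limma adjusted p = 0.405), while Gzma was 1.87 and still called. Of the Kupffer cell markers, Clec4f fell by 2.82, Timd4 fell by 1.32 and Cd163 fell by 2.02 log2. Cd163 averaged 3.21 log2 in knockout, below the limit for dim probe sets, and 5.24 in WT, so it was tested only because of its WT level. Csf1r, which most macrophages express, was 0.33 higher without passing, and -0.42 on the poly-A scale. Of 6 sinusoidal endothelial markers Stab2 rose by 0.45 and Clec4g fell by 0.67 log2. Both lost their call when replicate 1 or 2 of either genotype was left out (adjusted p up to 0.101 for Stab2 and 0.124 for Clec4g). Clec4g also lost it after centring on hepatocyte markers and when its probe sets were averaged. Of 3 erythroid markers 1 rose, Slc4a1, by 1.43 log2, and none of 3 cholangiocyte markers was called. Nkg7, Gzma, Stab2, Clec4g and Slc4a1 were chosen by rule, for the smallest adjusted p of their lists. The other genes named here were picked with their values known.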
